A study of Mus musculus with 4 samples.

Results

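The comparison described here is lutein added to 4-hydroxytamoxifen (4-OHT) in mouse retinas grown in suspension from induced pluripotent stem cells (3D-retinas). Its members were chosen by title: the array of 3D-retinas given lutein at 200 nM on top of 4-OHT, and the array of 3D-retinas given 4-OHT at 5 µM alone, 2 of the 4 arrays of the study. The other 2 arrays, 4-OHT with 400 µM vitamin E and vehicle (ethanol), are used only to place values. All 4 groups came from Nrl-GFP cells, whose rods carry a green fluorescent reporter under the rod gene Nrl, and structures with bright fluorescence were picked by hand for treatment on day 23 of differentiation and collected on day 25. For each group 24 3D-retinas were pooled and hybridised to 1 array. Without replicates the values below carry no SD between cultures and no p-value, and every difference is a size between 2 arrays.

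Lutein is a yellow carotenoid that accumulates in the macula of the human eye, absorbs blue light and quenches reactive oxygen species. 4-OHT is an active metabolite of tamoxifen, which binds estrogen receptors and whose long use has been linked to retinal toxicity in patients. Rods detect light by a cascade in which transducin activates a cyclic GMP phosphodiesterase, and cyclic GMP-gated channels then close, and the photoreceptor factors Crx, Nrl and Nr2e3 set rod gene expression.

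Of 35730 gene names on the array, 21986 were detected (well above background) with 4-OHT + lutein, with 4-OHT or with both and were compared, 13760 of them with a gene symbol. Signals are given as multiples of each array's 75th percentile over gene spots (scaled signal), and a log2 difference is 4-OHT + lutein minus 4-OHT. A signal that was not well above background on 1 of the arrays was raised to the lowest detected signal there if it lay below it, and was otherwise kept. Such a difference is called a bound. Each array had 30411 to 32318 detected spots among 59305 gene spots, and no gene spot was saturated. Repeated spots of 1 probe gave a log2 difference an SD of 0.142, called the spot SD here, and the scanner's own error of a difference had a median of 0.20. Retinal markers matched the labels: all 14 photoreceptor transcription factors and all 26 measured progenitor and Notch genes were well above background on all 4 arrays. In pooled tissue, fewer cells of a type and less RNA per cell cannot be told apart.

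Adding lutein left most genes close to their level under 4-OHT alone. Over genes with a symbol the log2 difference had a median of 0.13, with the 5th percentile at -0.56 and the 95th at 0.49. Of these 13760 genes, 102 were at least 2-fold higher on the 4-OHT + lutein array (0.741%) and 193 were at least 2-fold lower (1.4%). Over all 21986 measured genes the counts were 252 higher (1.15%) and 845 lower (3.84%). Most lower genes had no gene symbol. Among 2834 intergenic transcript regions 227 were 2-fold lower against 64 that were higher, and their median was -0.05. Among 5392 other transcripts without a symbol 425 were lower and 86 higher, with a median of 0.01. The balance depended on the scaling, because on 8 external spike-in probes the counts over all measured genes were 395 higher and 576 lower, and the median gene with a symbol stood at 0.31. Of these 8 probes the dimmest had a median signal of 50.5 with 4-OHT + lutein and 72.9 with 4-OHT. The next dimmest had 259 and 241. How far the spike-in scaling rests on the dimmest probe was not tested. No gene with a symbol detected on all 4 arrays, 12825 in number, was at least 2-fold higher than 4-OHT with 1 supplement and at least 2-fold lower with the other, a count in which both comparisons share the 4-OHT array.

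Rod phototransduction genes were higher as a group. All 27 listed genes were measured, 24 of them lay above 0 and 20 above the median gene with a symbol, and their median log2 difference was 0.35. The difference stayed short of 2-fold for all but 1 gene, and the list's median was 0.53 on spike-in scaling and 0.22 relative to the median gene. Gnat1, the alpha subunit of rod transducin, had a scaled signal of 2.58 with 4-OHT + lutein and 6.22 with 4-OHT + vitamin E, against 1.18 with 4-OHT and 48 with vehicle. It was 2.19-fold higher on the 4-OHT + lutein array than on the 4-OHT array (log2 difference 1.13) and stayed far below vehicle. Its probe lies on chromosome 9 at 107577023 to 107577082 on the minus strand of mm9, and the first 30 of its 60 bases are shown.
Gnat1 probe: caaagaatatcccatgtgaggttacaggca

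Cnga1, the alpha subunit of the rod cyclic GMP-gated channel, had 24.1 with 4-OHT + lutein, 40 with 4-OHT + vitamin E, 14.4 with 4-OHT and 69.7 with vehicle, a log2 difference of 0.75. Pde6g, the inhibitory subunit of the rod phosphodiesterase, had 104, 182, 73.2 and 363 on the same arrays in that order, a difference of 0.51. In both, the 4-OHT + lutein array lay between the 4-OHT and the vehicle array and below the vitamin E array. Rcvrn (recoverin, a calcium sensor) differed by 0.68, the transducin beta subunit Gnb1 by 0.62, the channel subunit Cngb1 by 0.58 and the phosphodiesterase subunit Pde6b by 0.47. Not every member did so. The rod kinase Grk1 differed by -0.19 and the exchanger Slc24a1 by -0.11, and Guca1a, an activator of guanylate cyclase, was well above background with 4-OHT and not with lutein, a bound of -0.74. Esrrb, an orphan nuclear receptor of rods, had 2.54 with 4-OHT + lutein, 4.79 with 4-OHT + vitamin E, 1.35 with 4-OHT and 12.4 with vehicle, a log2 difference of 0.91. The scaled signals by array are plotted for 5 rod genes beside 5 early response genes and 5 non-coding RNAs.

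**Figure D1:**
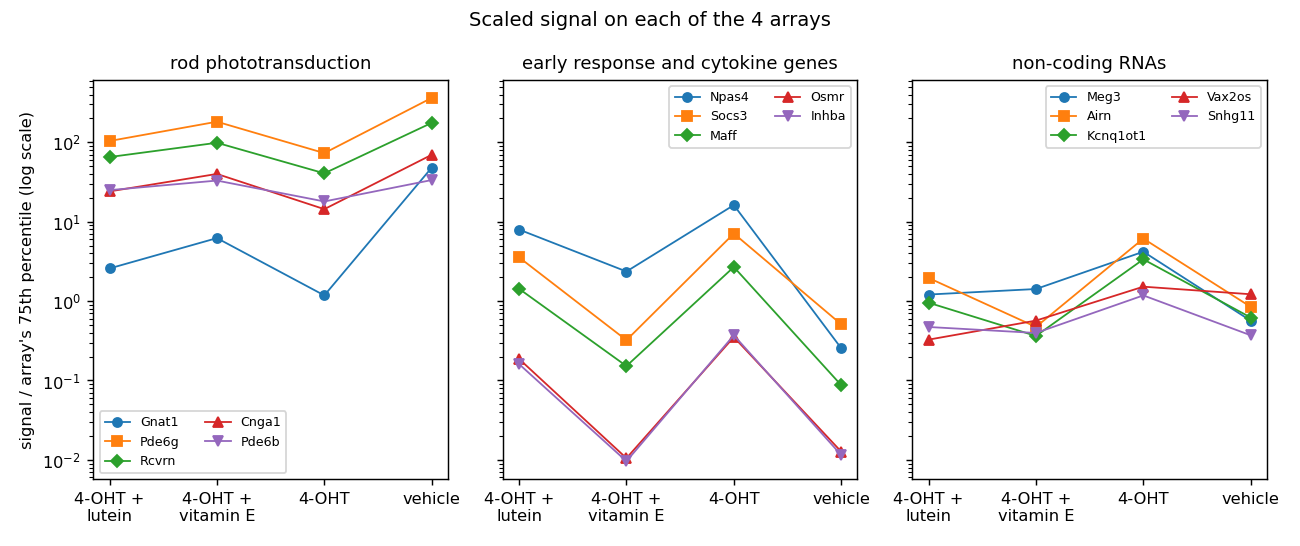
Scaled signal (signal divided by the array's 75th percentile, log axis) on the 4-OHT + lutein, 4-OHT + vitamin E, 4-OHT and vehicle arrays, 1 array each, with lines joining the values of a gene; Osmr and Inhba were not well above background with vitamin E and vehicle. Rod genes on the 4-OHT + lutein array lie above the 4-OHT array (Gnat1 at 2.58 against 1.18), and the other genes lie below it (Npas4 at 7.97 against 16.2).

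Of the 27 rod genes 19 had a promoter in the RefSeq table (GRCm38.p6, 250 bases before to 50 after the start). The motif TAATCC, the core recognised by Crx and related homeodomain factors, was present on either strand in 10 of those 19 (52.6%), against 1935 of all 27025 promoters (7.16%). It did not sort the differences: the 10 genes with it had a median log2 difference of 0.39 and the 9 without it 0.31. The 250 bases before the start are shown for Cnga1 and Cngb1, the 2 genes with a match that had the highest differences, with TAATCC in capitals. They lie at chr5:72642753-72643002 and chr8:95306586-95306835, both on the minus strand.
Cnga1 promoter: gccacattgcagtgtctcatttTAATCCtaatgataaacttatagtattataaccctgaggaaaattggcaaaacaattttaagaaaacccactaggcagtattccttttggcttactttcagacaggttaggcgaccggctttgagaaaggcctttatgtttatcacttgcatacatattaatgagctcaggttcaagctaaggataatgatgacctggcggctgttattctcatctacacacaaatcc
Cngb1 promoter: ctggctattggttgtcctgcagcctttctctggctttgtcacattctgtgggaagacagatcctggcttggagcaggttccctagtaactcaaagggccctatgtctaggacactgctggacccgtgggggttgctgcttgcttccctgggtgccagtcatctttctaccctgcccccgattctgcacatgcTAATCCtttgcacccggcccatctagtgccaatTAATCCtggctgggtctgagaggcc

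All 14 photoreceptor transcription factors lay above 0 and 12 above the median gene, with a median of 0.22, and 0 reached 2-fold. Prdm1, a factor that favours photoreceptor over bipolar fate, differed by 0.52, Nr2e3 by 0.39, Nrl by 0.29 and Crx by 0.26. Among 25 measured outer segment and cilium genes 19 lay above 0, led by the matrix protein Impg1 (0.75, on a probe with a C and T run described below) and the microtubule protein Rp1 (0.69), and Prph2, which shapes disc rims, differed by 0.47. Cone genes did not share this pattern. Of 15 measured, 9 lay above 0 but 5 above the median gene, and the median was 0.07, or -0.02 after quantile normalization. At 2-fold 0 were higher and 2 lower, beside 0.741% and 1.4% of all genes with a symbol. Without the last rows and run probes described below, 1 of 12 was lower. Kcne2, a potassium channel subunit, had 0.797 with 4-OHT + lutein, 1.06 with 4-OHT + vitamin E, 2.94 with 4-OHT and 0.228 with vehicle, which is 3.69-fold lower with lutein. Pde6c, the cone phosphodiesterase, had 0.307 with 4-OHT + lutein against 0.637 with 4-OHT, and 0.425 with vehicle. Its probe lay in the last rows of the array, described below. The short-wave opsin Opn1sw differed by -0.88 and cone arrestin Arr3 by -0.54, whereas the cone transducin Gnat2 differed by 0.18. Opn1sw was dim, at 0.082 with 4-OHT + lutein and 0.151 with 4-OHT, where the lowest detected signals were 0.057 and 0.0476.

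Genes of oxidative phosphorylation, the mitochondrial chain that makes ATP, lay higher together and within a narrow range. All 47 measured subunits were above the median gene with a symbol, between 0.14 (Uqcrq) and 0.49 (Ndufa4), with a median of 0.32. Ndufa4, a subunit of the terminal oxidase, had 55.5 with 4-OHT + lutein, 67.7 with 4-OHT + vitamin E, 39.7 with 4-OHT and 98.7 with vehicle. Each of these differences is small in size, beside a spot SD of 0.142. Mitochondrial ribosomal proteins had a median of 0.24 (27 of 28 above 0), the proteasome 0.20 (24 of 25) and cholesterol synthesis and SREBP genes 0.26 (31 of 32). Nsdhl, a sterol dehydrogenase, led the last list at 0.58. Over all genes with a symbol 9545 of 13760 lay above 0. Cytosolic ribosomal proteins had a median of 0.02 (-0.04 when the arrays were quantile normalized, 0.20 when scaled to the spike-in probes), and 1 of 35 lay above the median gene.

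Integrated stress response genes, high under 4-OHT, were slightly lower than most genes when lutein was present, by sizes short of 2-fold. Of 21 integrated stress response genes, which cells use when translation initiation is curbed, 0 passed 2-fold in either direction, and the median log2 difference was -0.17 with lutein beside -1.79 with vitamin E and 1.85 for 4-OHT against vehicle. Of the 21 genes 17 lay below 0 and 0 above the median gene with a symbol. The lutein median was -0.30 relative to that gene and 0.01 on spike-in scaling, so its sign depended on the scaling, with the dim spike-in probe described above included. Atf4, the central factor of this response, differed by 0.03, and its targets Trib3 and Chac1 by -0.06 and 0.00. Atf3, a stress-induced repressor, had 20.3 with 4-OHT + lutein, 2.4 with 4-OHT + vitamin E, 28.4 with 4-OHT and 1.37 with vehicle. Nupr1, a stress-induced chromatin protein, had the largest difference of the list at -0.84. The 22 genes of amino acid synthesis and import likewise had 0 past 2-fold and a median of -0.12, or 0.06 on spike-in scaling. The metallothioneins Mt1 and Mt2, which bind zinc, differed by -0.70 and -0.84, in a list of 13 metallothionein and zinc transport genes with a median of 0.11 and 9 above 0 (-0.02 relative to the median gene): Mt2 had 87.8 with 4-OHT + lutein, 7.59 with 4-OHT + vitamin E, 157 with 4-OHT and 5.26 with vehicle.

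Immediate early genes, transcription factors induced within minutes by calcium, growth factors or stress, were lower in most members. Of 26 measured, 23 lay below 0 and 25 below the median gene with a symbol, the median was -0.35 (-0.17 on spike-in scaling), and 2 were at least 2-fold lower. Npas4, induced by neuronal activity, had 7.97 with 4-OHT + lutein, 2.36 with 4-OHT + vitamin E, 16.2 with 4-OHT and 0.255 with vehicle, which is 2.03-fold lower with lutein. Klf4, a zinc finger factor, had 0.407, 0.132, 0.83 and 0.111 on these arrays in that order. Both stayed above the vehicle array. Fosl1, Maff and Mafk, partners of the AP-1 family, differed by -0.98, -0.91 and -0.85, whereas Fos and Egr1 differed by -0.17 and -0.01. The first 30 bases of the Npas4 probe, at 4984356 to 4984415 on the minus strand of chromosome 19 (mm9), are shown.
Npas4 probe: ctcgtggtgctgcggtgactttgtagccaa

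LIF-STAT3 and growth factor genes were also lower in most members, whereas chemokines and cytokines were not. The 18 measured genes of LIF-STAT3 signalling and gliosis had a median of -0.42 with 13 below 0. Socs3, the feedback inhibitor of STAT3, had 3.56 with 4-OHT + lutein, 0.322 with 4-OHT + vitamin E, 7.1 with 4-OHT and 0.51 with vehicle, a difference just short of 2-fold. Osmr, a receptor of oncostatin M, differed by -0.91, and Stat3 itself by -0.57. The injury-induced ligands Edn2 and Fgf2 differed by -0.99 and -0.82, and Gfap, the glial filament protein, by 0.40. Fgf2 (0.0734 with 4-OHT + lutein, 0.129 with 4-OHT, row 384) and Gfap (0.0898 and 0.0681, row 352) were dim and lay in the last rows described below. Their other probes were detected on neither array. Growth factors had a median of -0.43 over 16 genes. Inhba, the activin A subunit, was 2.31-fold lower with 0.161 against 0.371 with 4-OHT and was at background on the other 2 arrays. Bcl3, a cofactor of NF-kappaB, had 0.884 with 4-OHT + lutein against 1.9 with 4-OHT, and the chemokine Cxcl2 had 0.0697 against 0.167. The chemokines Cxcl1 and Cxcl10 differed by -0.95 and -0.41, and the probes of Cxcl1 (row 289) and Cxcl2 (row 290) lay in the last rows. Over the 11 measured chemokines and cytokines, however, the median was 0.02 with 6 above 0 and 5 below. Cxcl12, which guides migrating cells, differed by 0.68, with 0.227 against 0.142 with 4-OHT and 0.354 with vehicle. Timp1, an inhibitor of matrix proteases, had 0.35 with 4-OHT + lutein, 0.0708 with 4-OHT + vitamin E, 0.757 with 4-OHT and 0.0558, not well above background, with vehicle. Inhba, Bcl3, Cxcl2 and Timp1 were thus detected with lutein and not with vehicle. The plot of list members sets these groups beside each other.

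**Figure D2:**
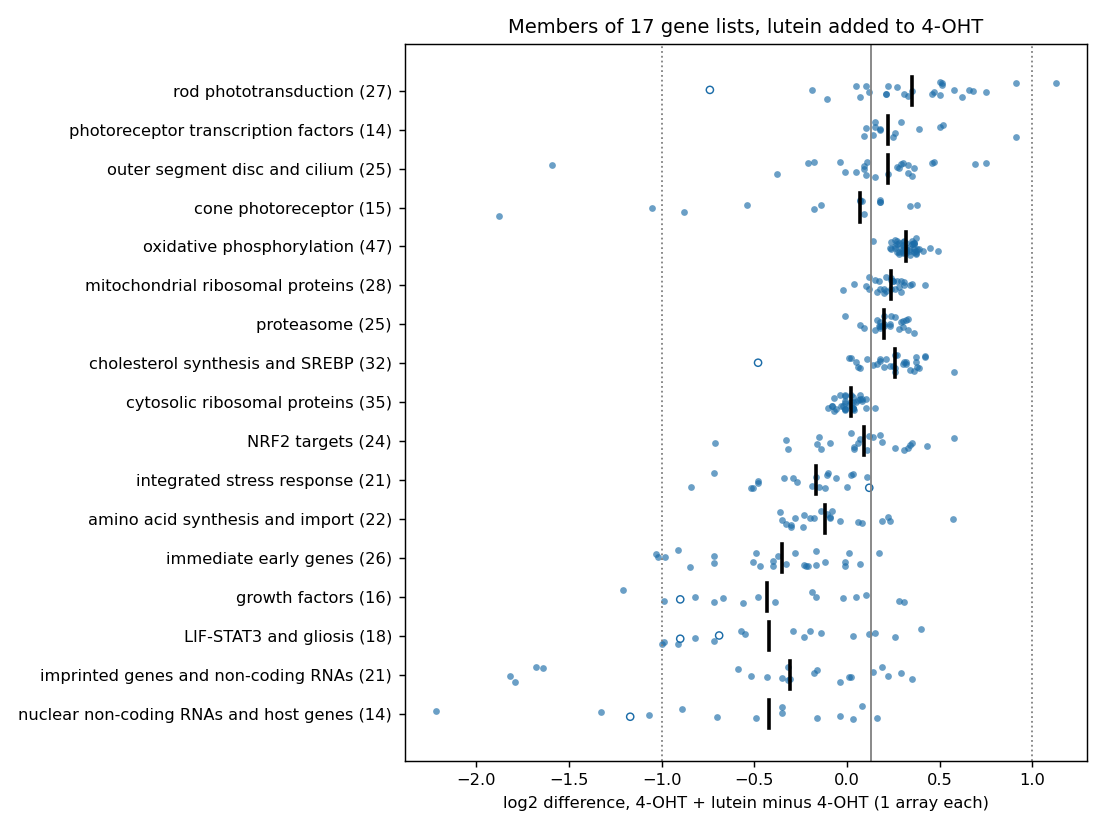
Log2 difference, 4-OHT + lutein minus 4-OHT, of every measured member of 17 gene lists, with the number measured in brackets; filled points were detected on both arrays, open points are bounds, black bars are list medians, the grey line is the median gene with a symbol and dotted lines mark 2-fold. Oxidative phosphorylation lies within 0.14 to 0.49, immediate early genes mostly lie left of the grey line (median -0.35), and the most distant points belong to non-coding RNAs.

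Retinoid and carotenoid genes were of interest because lutein is a carotenoid. Of 24 measured genes of the retinoid cycle and retinoic acid 2 were 2-fold lower and 0 higher, with a median of 0.17. Aldh1a3, which makes retinoic acid, had 0.657 with 4-OHT + lutein, 0.0922 with 4-OHT + vitamin E, 1.6 with 4-OHT and 0.0266 (not above background) with vehicle, 2.43-fold lower with lutein. Cyp26b1, which degrades retinoic acid, had 0.133 against 0.301 with 4-OHT, while the related Cyp26a1 had 0.506 against 0.262, so these enzymes differed in opposite directions (-1.18 and 0.95). Bco2, which cleaves carotenoids including lutein, was well above background with 4-OHT + lutein (0.121) and not with 4-OHT (0.0596). The ratio of these dim signals was 2.02-fold, and Bco2 also had 0.135 with 4-OHT + vitamin E and 0.089 with vehicle. The carotenoid uptake receptor Scarb1 differed by 0.42, and Stard3, a lutein-binding protein of the human retina, by -0.07. NRF2 targets, the antioxidant genes under that factor, had a median of 0.09 (-0.04 relative to the median gene) over 24 genes with 0 past 2-fold: glutathione reductase (Gsr) differed by 0.58 and Hmox1, the haem oxygenase, by -0.33. Esr2, the estrogen receptor beta, had 2.94 with 4-OHT + lutein, 2.15 with 4-OHT + vitamin E, 6.72 with 4-OHT and 2.71 with vehicle, a difference of -1.19. Hspa1a, the inducible heat shock protein, differed by -1.27, the autophagy membrane protein Atg9a by -1.09, and adrenomedullin (Adm) by -1.23, each the sole member of its list past 2-fold.

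The genes with the lowest differences were, from the lowest, Vax2os (-2.22), Pdzd7, Ankk1, Cd300lf, Kcne2, St6galnac1, Slc23a3, Vmn1r204, Brinp3 and Kcnq1ot1 (-1.82), among those with a symbol and detected on both arrays. Of these 10, 5 lay in the last rows of the array described below: Pdzd7 (row 376), Ankk1 (row 374), Vmn1r204 (row 383), Brinp3 (row 381) and Kcnq1ot1 (row 340). Slc23a3, an orphan member of the ascorbate transporter family, had 0.506 with 4-OHT + lutein, 0.0544 with 4-OHT + vitamin E, 1.82 with 4-OHT and 0.0648 with vehicle. Many low values sat on probes with a particular sequence. Probes are 60 bases long and match the RNA's own strand. In 12 of the 30 lowest genes the probe held a run of 10 or more bases in which A and G strictly alternate, whereas 26 of all 13760 genes with a symbol did. Of 52 measured probes with such a run 31 were at least 2-fold lower, 0 were higher, and 49 lay below 0, with a median of -1.20. Runs of C and T, the complement, went the other way: 51 of 52 probes lay above 0, with a median of 0.74. Runs of A and C had a median of -0.84 (85 probes) and their complement G and T 0.25 (174 probes), while runs of A and T lay at 0.00 (22 probes). Probes with at most 5 alternating A and G bases had a median of 0.07 (29415 probes). This split was found after the values were seen, over 5 base pairs and 4 length classes.

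**Figure D3:**
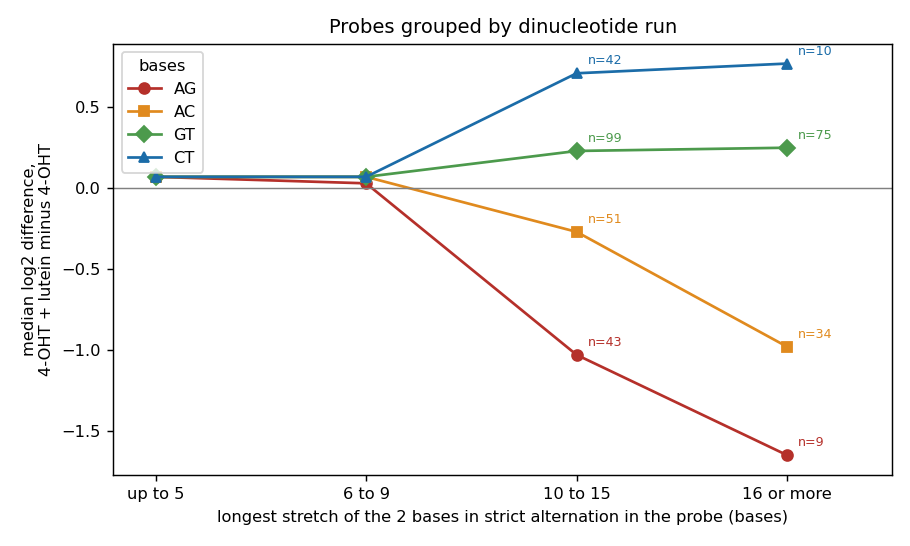
Median log2 difference, 4-OHT + lutein minus 4-OHT, of measured probes grouped by their longest strictly alternating stretch of A and G, A and C, G and T or C and T, with the number of probes at the 2 longest classes. Runs of A and G of 16 or more bases have a median of -1.65 and those of C and T 0.77.

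The same probes also differed in 2 other comparisons, which share the 4-OHT array with the lutein comparison and so are not independent of it. Probes with A and G runs had a median of -1.93 for 4-OHT + vitamin E minus 4-OHT and 1.52 for 4-OHT minus vehicle, and those with C and T runs had 1.33 and -0.83. Other probes of the same genes mostly had smaller differences. In all 13 genes with an A and G run probe and another detected probe, the run probe was lower than the median of the others (in Fam160b2 at 0.18 against 0.19, with single other probes at 0.02 and 0.36), with a median of -1.26 for the run probes and 0.15 for the others. For Cabp5, a calcium sensor of bipolar cells, the run probe had 9.26 with 4-OHT + lutein, 4.62 with 4-OHT + vitamin E, 28.5 with 4-OHT and 7.22 with vehicle, while its other probe had 0.16, 0.226, 0.136 and 0.377. The run probe was lower with lutein (log2 difference -1.62) and the other was higher (0.23), and the adaptor Shc4 had -1.75 and 0.18. The 30 bases around each run are shown with the run in capitals, beside the first 30 bases of the gene's other probe, and for Rgs20, a G protein regulator, whose probe with a C and T run had 0.79 and whose other probe had 0.17.
Cabp5 run probe, chr7:13993821-13993880, plus strand: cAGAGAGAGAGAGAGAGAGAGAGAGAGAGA
Cabp5 other probe, chr7:13988674-13988733, plus strand: tttgaagactttgtggaactgatgaccccc
Shc4 run probe, chr2:125453931-125453990, minus strand: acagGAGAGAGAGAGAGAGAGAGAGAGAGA
Shc4 other probe, chr2:125455334-125455393, minus strand: aagaaaatatgataacacaggacttttgcc
Rgs20 run probe, chr1:4900008-4900067, minus strand: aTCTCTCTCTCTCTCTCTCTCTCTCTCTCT
Rgs20 other probe, chr1:4900050-4900109, minus strand: tcacttggtaccatgctaggactgagagtc

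The positions are those of mm9 in the scanner files. Values of Cabp5, St6galnac1, Cd300lf and the pluripotency gene Tdgf1 (-1.60) therefore rest on probes with such a run, and so does catalase (Cat), whose brightest probe, with an A and C run, had -0.71 while its other probe had 0.59. The cause of the run pattern was not tested. Without probes holding a run of 10 or more bases of the 4 pairs that moved, 102 genes with a symbol were 2-fold higher and 167 lower, of 13646.

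The genes with the highest differences were Paqr6 (2.71), Afap1l1, Mesp2, Wif1 (1.95), Tmem169, E2f7, Anks1b, Tapbpl, Oas2 and Il12rb2 (1.25). Their position on the array stood out. Of 369 probes at least 2-fold higher 245 (66.4%) lay in rows 289 to 384 of 384, called the last rows here, which held 26.8% of measured probes. There 2.99% of probes were 2-fold higher, and in the other 3 blocks of 96 rows 0.427% to 0.662% were. Of probes 2-fold lower 30.8% lay there. For 4-OHT + vitamin E minus 4-OHT the shares higher were 2.41% in the last rows and 0.903% to 1.06% in the others, and for 4-OHT minus vehicle 8.76% and 7.48% to 7.94%. Repeated spots on the 4-OHT + lutein array had an SD about their probe of 0.101 in the last rows and 0.0818 to 0.0959 in the others.

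**Figure D4:**
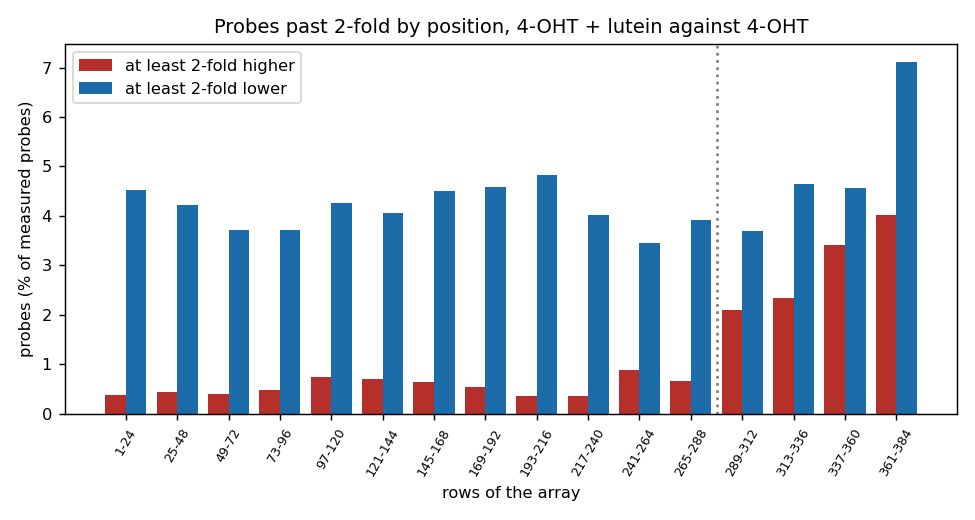
Share of measured probes at least 2-fold higher and at least 2-fold lower on the 4-OHT + lutein array than on the 4-OHT array, in 16 bands of 24 rows; the dotted line marks the start of the last rows (289 to 384). The share higher is 0.359% to 0.891% in the first 12 bands and 2.09% to 4.01% in the last 4.

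Of the 10 highest genes only Wif1 and Il12rb2 lay outside those rows. Wif1, a secreted inhibitor of Wnt signalling, had 0.241 with 4-OHT + lutein, 0.0866 with 4-OHT + vitamin E, 0.0623 with 4-OHT and 0.0438 (not above background) with vehicle, and has 1 probe. Il12rb2, a cytokine receptor chain, had 0.127 against 0.0532 with 4-OHT, both low signals. Genes with several probes disagreed: for Paqr6, a membrane progestin receptor, the probe in row 381 had 2.71, while those in rows 208 and 273 had a bound of 1.34 and -0.40. For E2f7, a cell cycle repressor, the probe in row 381 had 1.72 and that in row 195 had -0.03. The 5 highest bounds, Slc16a4 (at least 11.1-fold), Zfand4, Ms4a4a, Draxin and Tmed6, all lay in rows 355 to 380, and the last rows also held the bounds for Tmem119 (row 355), a microglial marker, and Traf1 (row 324), of NF-kappaB signalling. The 5 lowest bounds, H2-M9 (at least 12.6-fold), Slfn5os, Tex45, Neurog3 and H2-M10.1, lay in rows 364 to 384. Without those rows 35 genes with a symbol were 2-fold higher and 133 lower, of 10932. Gnat1 (row 79), Socs3 (row 14) and Aldh1a3 (row 126) lay outside them, whereas Npas4 (row 323), Rcvrn (row 339), and Cnga1 (row 297) lay inside. Without the last rows and without run probes the median was 0.34 over 22 rod genes and -0.37 over 17 immediate early genes (0.35 and -0.35 with them). In the same way the median was -0.69 over 11 LIF-STAT3 genes (-0.42 with them), -0.15 over 8 NF-kappaB genes (-0.27) and 0.22 over 7 chemokines and cytokines (0.02). The cause of the position pattern was not tested.

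In a few genes, most of them long non-coding RNAs, all probes past detection agreed on a lower level. Among 3826 genes with a symbol and at least 2 probes detected on both arrays, 112 had a probe past 2-fold, and in 6 every such probe was 2-fold lower: Vax2os, Meg3, Kcnq1ot1, Snhg11, Eva1b and Nkx1-1. In 0 was every probe 2-fold higher. Meg3 is the maternally expressed RNA of the Dlk1-Dio3 imprinted domain, Kcnq1ot1 a paternally expressed RNA that silences neighbours of Kcnq1, Airn its counterpart at Igf2r, Vax2os an antisense RNA of the eye patterning gene Vax2, and Snhg11 a host gene of a small nucleolar RNA. In the list of imprinted genes 4 of 21 measured were 2-fold lower, all of them non-coding: Kcnq1ot1, Meg3, Mirg and Airn, and the median of the list was -0.31. Over all genes with a symbol 193 of 13760 (1.4%) were 2-fold lower. Transcripts without a symbol were lower more often, 227 of 2834 intergenic regions and 425 of 5392 others. The probes that stand for Kcnq1ot1 (row 340), Mirg (row 323) and Airn (row 308) lay in the last rows, and among the 12 members whose probe lay outside them and held no run 1, Meg3, was 2-fold lower. Outside those rows the other Kcnq1ot1 probe (row 89) had -1.88 and 2 Airn probes (rows 281 and 21) had -1.05 and -0.49, but the Mirg probe of row 172 had -0.08. The coding gene Dlk1 of the same domain differed by 0.14, Igf2r by -0.16 and Peg3 by -0.32.

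Meg3 had 1.21 with 4-OHT + lutein, 1.42 with 4-OHT + vitamin E, 4.19 with 4-OHT and 0.566 with vehicle on its brightest probe, and its 3 probes had -1.79, -1.86 and -2.04. Kcnq1ot1 had 0.955, 0.364, 3.36 and 0.621 on those arrays in that order, and its 2 probes had -1.82 and -1.88. For both, the 4-OHT array was the highest, and the vehicle value lay below the lutein value. Vax2os differed from them in that its vehicle level was near the 4-OHT level: 0.327 with 4-OHT + lutein, 0.568 with 4-OHT + vitamin E, 1.52 with 4-OHT and 1.22 with vehicle, with -2.22 and -2.68 on 2 probes. It was thus lower with lutein than on every other array. Neat1 and Malat1, RNAs of nuclear bodies, differed by -1.07 and -0.89. Of each of Meg3, Vax2os and Kcnq1ot1, 2 whole probes are shown because their agreement rests on separate sequences, none of which holds a dinucleotide run of 10 bases.
Meg3 probe 1, chr12:110809678-110809737, plus strand: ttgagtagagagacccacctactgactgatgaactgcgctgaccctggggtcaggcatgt
Meg3 probe 2, chr12:110799558-110799617, plus strand: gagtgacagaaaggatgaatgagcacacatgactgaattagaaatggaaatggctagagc
Vax2os probe 1, chr6:83642806-83642865, minus strand: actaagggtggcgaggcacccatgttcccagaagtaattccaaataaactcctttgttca
Vax2os probe 2, chr6:83652173-83652232, minus strand: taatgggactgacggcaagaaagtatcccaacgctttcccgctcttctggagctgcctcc
Kcnq1ot1 probe 1, chr7:150440140-150440199, minus strand: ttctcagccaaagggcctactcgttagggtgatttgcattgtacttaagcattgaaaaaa
Kcnq1ot1 probe 2, chr7:150434020-150434079, minus strand: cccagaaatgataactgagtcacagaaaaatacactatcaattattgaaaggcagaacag

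The array also carries intergenic probes along these loci, on both strands. From Meg3 to Mirg on chromosome 12, 29 probes of the RNA's own plus strand were measured. Of these 12 were 2-fold lower and 1 higher, where over the whole array 1345 of 30618 measured probes were lower and 369 higher. Of the 12 lower probes 8 were detected on both arrays and the others are bounds. The 16 probes detected on both arrays had a median of -0.95, between -2.11 and 0.61. Of 7 probes of the opposite strand 1 was 2-fold lower, as a bound, and the 3 detected on both arrays had 0.25 to 0.47. Along Airn (chromosome 17, 12924784 to 13031328, which includes 20000 bases on either side of its named probes), 9 of 17 plus strand probes were 2-fold lower and 0 higher. Of the 9 lower probes 8 were detected on both arrays, and all 13 detected on both arrays had a median of -1.40. The 6 probes within 1 kb of the first Airn probe, at 12944295 to 12944843, had -1.40 to -1.96, 4 of them outside the last rows. Along Airn 2 opposite strand probes were measured, 1 detected on both arrays with 0.09 and 1 with a bound of 0.78. The lower values detected on both arrays lay on the strand of the RNA and were not uniform along the loci. Few opposite strand probes were detected on both arrays, so the strands could be compared only in part. These windows were chosen after the values were seen. Medians over the plus strand probes detected on both arrays were -0.81 for 4-OHT + vitamin E minus 4-OHT and 1.61 for 4-OHT minus vehicle at Meg3 to Mirg. At Airn they were -2.42 and 1.73. These comparisons share the 4-OHT array with the lutein comparison.

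**Figure D5:**
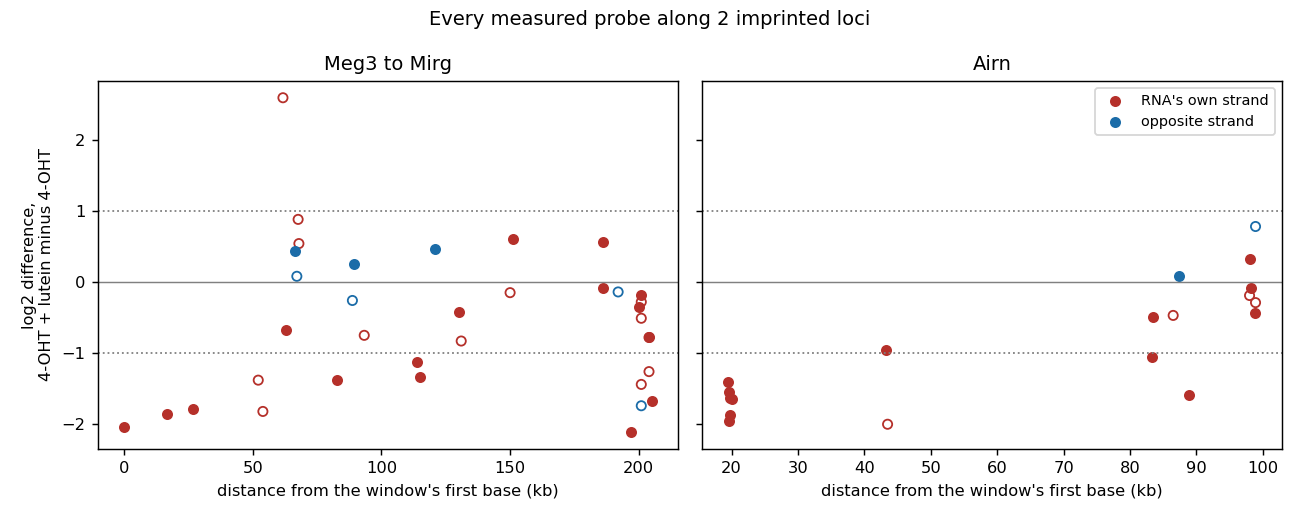
Log2 difference, 4-OHT + lutein minus 4-OHT, of every measured probe by its distance in kb from the start of the window, for Meg3 to Mirg and for Airn; filled points were detected on both arrays, open points are bounds, red is the strand of the RNA, blue the opposite strand and dotted lines mark 2-fold. The 3 Meg3 probes at the left lie at -1.79 to -2.04, and no filled blue point lies below 0.

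Among other intergenic regions detected on both arrays the lowest was on chromosome 1 at 94090218 to 94090277 (plus strand), with 0.125 with 4-OHT + lutein, 0.0386 with 4-OHT + vitamin E, 0.773 with 4-OHT and 0.0712 with vehicle, a difference of -2.63. The next were on chromosomes 15 (-2.23) and 18 (-2.15), the last of these in row 341, within the last rows. The 3 highest (2.79, 2.43 and 2.35) were all on chromosome 13, and their probes lay in rows 378 to 380.

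Promoters of the 10 lowest and 10 highest genes were searched for 6 motifs, with 15 of the 20 in the table. The composite element TGATGNAAT, bound by CEBP-ATF dimers such as those of Atf4, was in 4 of these 15 on either strand (26.7%), against 262 of 27025 promoters (0.969%). The 4 genes, Pdzd7, Cd300lf, Slc23a3 and Brinp3, were all among the lowest. The low values of 3 of them rest on probes with the patterns above: Pdzd7 (row 376, with a bound of 1.03 on its row 276 probe), Brinp3 (row 381) and Cd300lf (an A and G run of 18 bases). Over all 59 measured genes with a symbol and this motif, 3 were 2-fold higher, 4 were lower and the median was -0.05. Over all genes with a symbol 0.741% were higher and 1.4% lower, with a median of 0.13. The 4 lower genes were the same 4 that prompted this count, so it cannot show whether the motif marks lower genes. TGATGNAAT was in 2 of 19 promoters of the integrated stress response (10.5%). The 40 bases around each match are shown with the match in capitals.
Pdzd7, chr19:45045856-45045895, minus strand: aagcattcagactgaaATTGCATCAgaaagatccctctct
Cd300lf, chr11:115134163-115134202, minus strand: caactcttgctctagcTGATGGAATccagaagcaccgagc
Slc23a3, chr1:75134027-75134066, minus strand: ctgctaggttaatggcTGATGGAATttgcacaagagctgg
Brinp3, chr1:146495472-146495511, plus strand: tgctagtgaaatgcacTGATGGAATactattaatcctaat

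These positions are GRCm38.p6. For the other motifs, the E-box CACGTG was in 5 of 22 promoters of immediate early genes (22.7%) and 4 of 22 of cholesterol genes (18.2%), against 7.24% of all, and TCACNCCAC, a sterol response element, in 1 of 22 cholesterol genes, Hmgcs1. The AP-1 motif TGANTCA was in 0 of 22 promoters of immediate early genes, against 7.93% of all, and TGACGTCA, the cAMP response element, in 1, Btg2.

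Few markers of other cell types passed 2-fold with lutein, as did few genes with a symbol of any kind (0.741% higher and 1.4% lower). On the main scaling Muller glia markers had a median of 0.14 (0 of 19 past 2-fold), retinal ganglion cell markers 0.21 (0 of 20, 16 above 0), close to the 0.22 of the photoreceptor transcription factors, and amacrine and horizontal markers 0.10, where the factor Onecut2 differed by -1.15. Bipolar markers had a median of 0.13 with Cabp5, on its run probe, as the member past 2-fold. Microglia and macrophage markers were mostly near or below background: 6 of the 9 measured genes were well above background with 4-OHT + lutein and 8 with 4-OHT, of 20 listed. Their summed scaled signal was 18.9 with 4-OHT + lutein, 14.5 with 4-OHT + vitamin E, 33.3 with 4-OHT and 14.7 with vehicle. Most of that sum came from Itgam, whose probe holds an A and C run of 20 bases and which had 14.2 with 4-OHT + lutein against 28.2 with 4-OHT. Cd68, a macrophage lysosomal protein, had 0.539 with 4-OHT + lutein, 0.246 with 4-OHT + vitamin E, 1.19 with 4-OHT and 0.229 with vehicle. Of the 9 measured genes 7 lay below 0 and 2 above. Past 2-fold were Cd68 (-1.15) and, the other way, Tmem119, with a bound of 2.13 in the last rows. The part of such cells in the values of other genes was not tested.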

How the data were processed

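Each of 4 pools of 3D-retinas, 1 per group, was read on a 1-colour mouse array, all on 1 slide and in 1 scan, so that the place on the slide is confounded with the group. Per the submitters' processing notes the software was Agilent Feature Extraction 10.7.3.1. It subtracted the background from each deposited intensity and detrended it, and probe positions are mm9, per the file headers. The lutein file was saved at 3 significant digits with 57 altered gene names, so names came from the 4-OHT file. The authors' deposited value table, compared with the scanner values, holds these intensities divided by 1 number per array (479 for 4-OHT + lutein, 434 for 4-OHT). It is neither logged nor centred, had column medians of 0.0847 and 0.0949, and served as an alternative.

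Control spots and marked outlier spots were left out (137 to 164 gene spots per array). Intensities were log2-transformed, and the 75th percentile of gene spots was subtracted (551 for 4-OHT + lutein, 498 for 4-OHT). Spots of a probe were averaged, and the brightest probe over all arrays represented its gene. Accessions of 28385 of 55646 probes (51%) were found in RefSeq (GRCm38.p6, used for names and promoters only, 1 promoter per gene), and others kept the file's name. No test was possible with 1 array a group, and that number limits the precision. Of 1124 listed symbols in 53 lists 1114 were on the array.

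Members and lists were chosen with earlier results of these data known. Genes were named by rule: the 10 highest and 10 lowest with a symbol detected on both arrays, 5 bounds each way, list members past 2-fold or otherwise up to 4 with the largest differences, a fixed set of retinal and stress genes, and 3 intergenic regions each way. Further list members are given for their role, and Eva1b, Nkx1-1, Shc4, Rgs20 and Fam160b2 were named after their values were seen. The steps were tested on simulated data. Normexp came from limma 3.58.1 under R 4.3.3, and other steps used Python 3.11.15, NumPy 2.4.6, pandas 2.3.3 and matplotlib 3.10.9. Results on a few items are not reported here.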

Additional observations from a re-analysis of the deposited data

Results flagged for a closer look

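The external control probe ERCC-00113_271, which no comparison used, had a median signal of 27.2 on the 4-OHT + lutein array, 13.3 on the 4-OHT + vitamin E array, 55.6 on the 4-OHT array and 16.9 on the vehicle array. It was picked out because its signal on the 4-OHT array was above the level with vehicle. Of its 28 spots 6 were well above background with 4-OHT + lutein, 1 with 4-OHT + vitamin E, 28 with 4-OHT and 2 with vehicle. The difference between groups was not tested.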

How the results depend on the processing

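No paired analysis was possible because there was 1 array per group. The 252 genes at least 2-fold higher and 845 lower with lutein were 395 and 576 on spike-in scaling, 83 and 307 after normexp, 75 and 616 with detection on both arrays, 1340 and 2133 with no filter and no floor, 844 and 2008 at 1.5-fold, 64 and 50 at 4-fold, and 102 and 193 among genes with a symbol. With alternatives added after the data were seen, the higher count was 91 without the last rows (289 to 384) (642 lower), 254 without dinucleotide runs (799 lower) and 262 with outlier spots kept. Other scalings, the mean of a gene's probes, rounding and the authors' value table gave 189 to 343 higher and 763 to 1138 lower. The integrated stress response median turned to 0.01 on spike-in scaling. Without those rows Paqr6 (-0.40), Anks1b (-0.40) and E2f7 (-0.03) turned, and without run probes Anks1b (-0.40), Cabp5 (0.23) and St6galnac1 (1.11) did, since another probe then stood for the gene. Spike-in scaling shifted every difference by 1 constant larger than the spot-to-spot SD (median gene with a symbol from 0.13 to 0.31). That constant is a mean over few probes, the dimmest of which had 50.5 with 4-OHT + lutein and 72.9 with 4-OHT. The scaling was not repeated without it. All 250 named genes and 52 of 53 list medians therefore counted as moved, besides the 1 counted as turned. A list median counted as turned only if its size was at least that SD. Smaller medians also changed sign, among them amino acid synthesis and import (-0.12 to 0.06) and microglia and macrophage markers (-0.09 to 0.09). Of the named genes 96 moved by more than that SD after normexp, 40 after quantile normalization and 23 with the mean of a gene's probes, and 4 list medians did without the last rows. Dim signals near background limit the bounds and the counts.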
